A study of Homo sapiens with 38 samples.

Results

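Messenger RNA decay was followed here through 42 genes, listed by name for their place in the decay machinery. They were 11 genes of the CCR4-NOT deadenylase (CNOT1 to CNOT4, CNOT6, CNOT6L and CNOT7 to CNOT11), 3 genes of other deadenylases (PAN2, PAN3 and PARN), 5 adaptors that bring deadenylases to transcripts (TOB1, TOB2, BTG1, ZFP36L1 and ZFP36L2) and the poly(A)-binding proteins PABPC1 and PABPC4. The others were 11 decapping factors (DCP1A, DCP1B, DCP2, EDC3, EDC4, DDX6, PATL1, LSM1, LSM14A, LSM14B and EIF4ENIF1), the exonucleases XRN1 and XRN2, and 8 factors of nonsense-mediated decay (UPF1, UPF2, UPF3A, SMG1, SMG5, SMG6, SMG8 and SMG9). All 42 were found among the 58425 genes with a matched transcript. All of them also passed the filter on low counts, which left 17605 genes to test in the cytoplasm and 18919 in the nucleus.

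RNA-seq was done on cytoplasmic and nuclear fractions of HCT116 cells, a human colorectal carcinoma line. Wild-type cells were compared with 4 lines made from HCT116 by CRISPR editing to lack the Argonaute genes AGO1, AGO2, AGO1/2 or AGO1/2/3. Each of the 10 groups of genotype and fraction held 3 libraries, 1 for each of 3 culture passages. These were passages 27, 28 and 29 for wild type, 6, 7 and 8 for AGO1, 8, 9 and 10 for AGO2, 9, 10 and 11 for AGO1/2, and 11, 12 and 14 for AGO1/2/3. Each genotype was a single line, and the wild-type passages were later than every knockout passage, so genotype, clone and passage cannot be told apart. The p-values measure only the spread between passages within a line, pooled over all groups of a fit. The 8 eCLIP samples of the series were not analysed here.

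Most messenger RNA is degraded after its poly(A) tail has been shortened by PAN2-PAN3 and CCR4-NOT. The cap is then removed by DCP2 with its partners, and the transcript is digested from the 5′ end by XRN1 or from the 3′ end by the exosome. An Argonaute protein loaded with a microRNA binds a TNRC6 protein, which brings both deadenylases to the target, and CCR4-NOT in turn binds the helicase DDX6. In nonsense-mediated decay (NMD), UPF1 acts on transcripts with a premature stop codon after it has been phosphorylated by SMG1.

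The cytoplasmic libraries held 39476205 to 79731793 estimated reads and the nuclear libraries 20431557 to 54097984. Depth went with genotype, since the wild-type libraries were the shallowest of each fraction. They held at most 43281746 reads in the cytoplasm and 26536692 in the nucleus, and the knockout libraries at least 66451720 and 31252459. The lowest count of any of the 42 genes in any library was 265 reads, for LSM1. AGO1 mRNA was lower in every line edited in AGO1, with log2 changes of −3.49, −3.19 and −3.29 in the cytoplasm of the AGO1, AGO1/2 and AGO1/2/3 lines and −1.25, −1.90 and −1.70 in their nuclei. AGO2 mRNA was still read in all 3 lines edited in AGO2, at log2 changes between −0.67 and 0.31, and AGO3 mRNA in the AGO1/2/3 line (0.34 in the cytoplasm and −0.30 in the nucleus), so RNA levels checked the AGO1 label alone. Wild-type passage 29 stood apart from passages 27 and 28 in both fractions. The epithelial genes EPCAM and CDH1 were lower in the cytoplasm of the AGO1/2 line (−1.22 and −3.08) and the AGO1/2/3 line (−1.18 and −2.40). KRT8, also an epithelial gene, was higher in the nuclei of both lines (values below). The markers KRT18 (epithelial) and COL1A1 (fibroblast) are not given here. The blood, endothelial and liver markers PTPRC, PECAM1 and ALB were at most 0.00413, 0.115 and 0.414 TPM (transcript abundance scaled for length and library size) in any library.

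Sequence matches to microRNA seeds (bases 2 to 8) were looked up in the 3′ untranslated regions of the 42 genes, because Argonaute proteins reach their targets through them. Of a list of 20 microRNAs, each standing for 1 seed family, 19 had a mature sequence in the RefSeq table for GRCh38. The 6 below belong to the sites shown next, with the seed in capitals.
hsa-miR-19b-3p: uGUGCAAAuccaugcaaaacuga
hsa-miR-92a-3p: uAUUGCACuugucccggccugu
hsa-miR-26a-5p: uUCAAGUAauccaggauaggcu
hsa-miR-182-5p: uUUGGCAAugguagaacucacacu
hsa-miR-27b-3p: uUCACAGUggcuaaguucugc
hsa-miR-10a-5p: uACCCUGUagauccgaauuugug

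An 8mer match is the complement of the seed followed by A. At least 1 such match for the 19 microRNAs lay in the 3′ untranslated region of 21 of the 42 genes and of 48% of 13555 genes, at 0.566 and 0.509 matches per kb. Sites are shown for TOB1, PATL1, DCP2 and CNOT6, which were chosen after their values had been seen because all 4 were higher in the cytoplasm of both the AGO1/2 and the AGO1/2/3 line. Capitals mark the 8 letters of the match (TTTGCACA for miR-19, GTGCAATA for miR-92a, TACTTGAA for miR-26a, TTGCCAAA for miR-182, ACTGTGAA for miR-27b and ACAGGGTA for miR-10a). Only the strand of the transcript was searched, and the shares of the 13555 genes with these 8mers were 6.86%, 3.50%, 5.98%, 6.52%, 6.68% and 2.15%. The neighbouring TOB1 matches overlap each other. Coordinates are those of GRCh38 with the strand of the gene, and all sites lie in the 3′ untranslated region of the canonical GENCODE 44 transcript.
TOB1 miR-92a site, chr17:50862322-50862343 (−): cctatattGTGCAATActtgaa
TOB1 miR-26a site, chr17:50862316-50862337 (−): ttgtgcaaTACTTGAAaaaaac
PATL1 miR-19 site, chr11:59637483-59637504 (−): tgtggcttTTTGCACActtgcc
PATL1 miR-19 site, chr11:59637040-59637061 (−): ataaacatTTTGCACAtacatg
PATL1 miR-10a site, chr11:59637569-59637590 (−): ctacaactACAGGGTActtgag
DCP2 miR-27b site, chr5:113016062-113016083 (+): tgcagtgcACTGTGAAtctttt
DCP2 miR-27b site, chr5:113019252-113019273 (+): ggttctcaACTGTGAAtgaaat
DCP2 miR-182 site, chr5:113017457-113017478 (+): ttgtctagTTGCCAAAagttct
CNOT6 miR-182 site, chr5:180578183-180578204 (+): tcatatctTTGCCAAAgttcaa

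These matches describe sequence only, and no microRNA level was measured in these libraries. DCP2 had 6 8mer matches in a 3′ untranslated region of 8711 bases, PATL1 3 in 1674 bases, TOB1 2 in 757 bases and CNOT6 1 in 4158 bases. The genes themselves lie at chr5:112976702-113022195 (DCP2), chr11:59636716-59669037 (PATL1), chr17:50862223-50867978 (TOB1) and chr5:180494379-180578358 (CNOT6). Other genes that recur below are XRN2 (chr20:21303331-21389825), UPF1 (chr19:18831959-18868230) and ZFP36L1 (chr14:68787660-68796253).

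Levels in wild-type cells spanned a wide range when expressed per length as TPM. PABPC1, which coats poly(A) tails, was far the most abundant in the cytoplasm at 1124 ± 15.3 TPM (SD, n = 3), and its libraries read 1131, 1107 and 1135 TPM. ZFP36L1, which binds AU-rich elements, followed at 115 ± 20.9 TPM and PABPC4 at 112 ± 14.4 TPM, and the ranges of these neighbours overlapped. CNOT7, a catalytic deadenylase subunit, CNOT1, the scaffold of CCR4-NOT, LSM14A and DDX6 formed the next block at 73.9, 66.2, 65.6 and 59.7 TPM, again with overlapping ranges. XRN2 (39.6 ± 4.15 TPM) and CNOT11 (28.9 ± 2.06 TPM) each stood apart from both neighbours. The low end was DCP1B (5.78 ± 0.377 TPM), the NMD endonuclease SMG6 (4.21 ± 0.461 TPM) and PAN2, the catalytic subunit of PAN2-PAN3 (1.93 ± 0.0563 TPM), 3 genes whose ranges did not overlap.

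**Figure D1:**
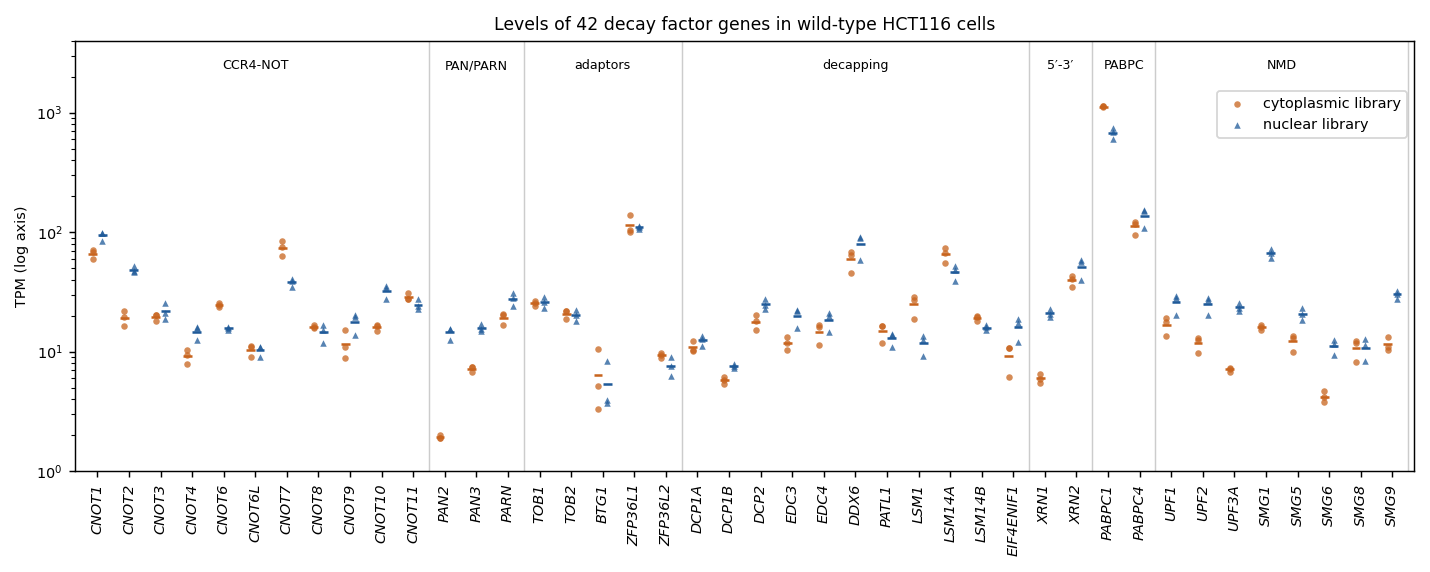
Level of each of the 42 genes in wild-type cells (TPM, log axis), with 1 point for each of the 3 passages in the cytoplasmic and the nuclear fraction. PABPC1 lies at the top of both fractions (means of 1124 and 679 TPM) and PAN2 at the bottom of the cytoplasm (1.93 TPM).

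In wild-type nuclei the order began with PABPC1 (679 ± 68.7 TPM), PABPC4 (138 ± 25.2 TPM) and ZFP36L1 (109.6 ± 3.12 TPM). SMG1, the kinase of UPF1, stood at 66.7 ± 6.08 TPM, between DDX6 (79.5 TPM) and XRN2 (51.3 TPM). Its reads are uncertain, since 7 named SMG1 pseudogenes held 7.22 to 30.4% of the reads summed over SMG1 and these copies. UPF3A has 3 such pseudogenes (0.742 to 6.31%), whereas 13 PABPC1 pseudogenes held at most 0.0629%. At the low end were ZFP36L2 (7.61 TPM), DCP1B (7.57 TPM) and BTG1 (5.36 TPM).

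Relative to all genes, the decay factors leaned towards the cytoplasm, as did protein-coding genes as a whole. In wild-type cells 27 of the 42 were lower and 10 higher in the nucleus (edgeR's quasi-likelihood test, adjusted p at most 0.05 over 20104 genes), where 37.3% of all genes were called lower and 39.6% higher. The median of the 42 log2 ratios was −0.34, against 0.04 over all genes and −0.28 over 13926 protein-coding genes, of which 49.0% were lower and 26.3% higher. The split depends on the filter and the scale. With a filter at a mean count of at least 50, 11 were higher and 17 lower. On log2(TPM + 0.1) values, where the median of all genes shifted by 0.58, 24 were higher and 8 lower, and with each library centred on its median 9 were higher and 27 lower. Of the 37 called genes 13 had the opposite sign on the uncentred TPM scale, and CNOT4 alone on the centred one. The fraction markers MALAT1, NEAT1 and GAPDH differed by 3.83, 3.89 and −1.20.

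The deadenylases CNOT7, CNOT6 and CNOT8, catalytic subunits of CCR4-NOT, were lower in the nucleus, and PAN2 was higher. CPM, read counts scaled to library size (here over both fractions), are given in the order of passages 27, 28 and 29. CNOT7 had 209, 206 and 179.8 CPM in the cytoplasm and 73.5, 72.1 and 66.5 in the nucleus (log2 ratio −1.49 ± 0.10, adjusted p = 6.4e-13). CNOT6, another catalytic subunit, had 162, 165 and 179 and 67.5, 68.1 and 75.2 CPM (−1.26 ± 0.07, adjusted p = 3.5e-14). In both cases no nuclear library reached the lowest cytoplasmic one. CNOT8, the paralog of CNOT7, was lower as well (−0.86 ± 0.06, adjusted p = 9.2e-13), as was CNOT11, part of the CNOT10-CNOT11 module (−0.95 ± 0.04, adjusted p = 2.1e-16). The deadenylases CNOT6L (−0.40 ± 0.06) and PARN (−0.33 ± 0.06) were called lower by less, PARN at 0.53 on uncentred TPM.

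Of the 11 decapping genes 9 were lower in the nucleus and none higher, where 49.0% of protein-coding genes and 37.3% of all genes were lower. On uncentred TPM 5 of the 9 (EDC4, DDX6, DCP1B, EDC3 and DCP1A) were above 0. LSM1, of the LSM ring that binds shortened tails, had 39.4, 38.8 and 29.0 CPM in the cytoplasm and 12.7, 13.5 and 9.98 in the nucleus (−1.57 ± 0.15, adjusted p = 1.0e-09), the largest ratio of the 42. LSM14A (−1.20 ± 0.08), PATL1, a decapping activator (−0.89 ± 0.10), and LSM14B (−0.84 ± 0.05) followed it. PABPC1 differed by −1.25 ± 0.07 and ZFP36L2 by −0.85 ± 0.09, with adjusted p = 1.0e-14 and 5.6e-09. NMD factors went the other way more often, with 5 of 8 higher in the nucleus and 2 lower. Of protein-coding genes 26.3% were higher, and of all genes 39.6%. SMG1 and UPF3A, which have pseudogenes, were among the 5. SMG1 had 278, 300.3 and 297 CPM in the cytoplasm and 570.1, 558 and 473 in the nucleus (0.87 ± 0.07, adjusted p = 1.7e-11), with the doubt about its pseudogenes given above. PAN2 was the gene most shifted to the nucleus, with 11.9, 13.5 and 13.5 against 24.8, 29.9 and 31.8 CPM (1.15 ± 0.13, adjusted p = 9.7e-09).

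Nuclear reads of these genes came in part from transcripts not annotated as protein-coding (retained introns, NMD substrates and the like), called non-coding here. For PAN2 such transcripts made up 22.6, 12.1 and 20.6% of the gene's TPM in the 3 cytoplasmic wild-type libraries and 82.1, 85.2 and 85.5% in the nuclear ones. For UPF3A they made up 77.4, 79.8 and 76.3% in the nucleus, so the nuclear level of both genes is mostly not that of transcripts annotated as protein-coding. The ratio of non-coding to coding TPM was higher in the nucleus for 32 of the 38 genes that could be tested and lower for none (limma on log2 ratios). Among 9484 genes tested 71.5% were higher and 5.04% lower, and the median log2 difference was 2.32 for the 38 genes and 1.77 for all. The largest differences were those of ZFP36L1 (0.427, 0.249 and 0.652% in the cytoplasm and 15.2, 17.8 and 11.9% in the nucleus) and XRN1 (3.50, 3.12 and 0% and 40.9, 47.0 and 32.5%), with log2 differences of 5.10 ± 0.34 and 4.29 ± 0.36. PAN2 (4.28 ± 0.26), SMG5 (4.23 ± 0.38), CNOT7 (4.10 ± 0.16) and CNOT8 (3.91 ± 0.43) came next.

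In the cytoplasm, few decay factors were called in the single knockouts, and more were called, in both directions, in the AGO1/2 and AGO1/2/3 lines. All knockouts were compared with the same 3 wild-type libraries, so the comparisons are not independent of each other. In the AGO1 line 5 genes were higher and none lower, against 4.28% of all genes higher and 8.13% lower. In the AGO2 line 2 were higher and 3 lower (7.07% and 9.0% of all genes). In the AGO1/2 line 7 were higher and 21 lower (23.9% and 25.4%), and in the AGO1/2/3 line 6 were higher and 13 lower (18.6% and 20.0%). The lower count in the AGO1/2 line was 50.0% of the 42 genes, and 29.3% of 13620 protein-coding genes were lower there. Median log2 changes were −0.18 in AGO1/2 and −0.11 in AGO1/2/3, and −0.01 over all genes in both.

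The 5 higher genes of AGO1 were 2 without AGO1 passage 7 and 3 without AGO1 passage 8 or wild-type passage 27, and the 6 of AGO1/2/3 were 3 without wild-type passage 27. These splits move with the scale. On log2(TPM + 0.1) values the median of all genes shifted by −0.14, −0.21, −0.36 and −0.23 in the lines lacking AGO1, AGO2, AGO1/2 or AGO1/2/3. The higher and lower genes were then 2 and 4, 0 and 16, 2 and 33, and 2 and 28. With each library centred on its median they were 9 and 0, 4 and 2, 8 and 16, and 5 and 12. In the AGO1/2 cytoplasm the mitochondrial transcript MT-CO1 also differed (0.92), and its part in these values was not tested.

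**Figure D2:**
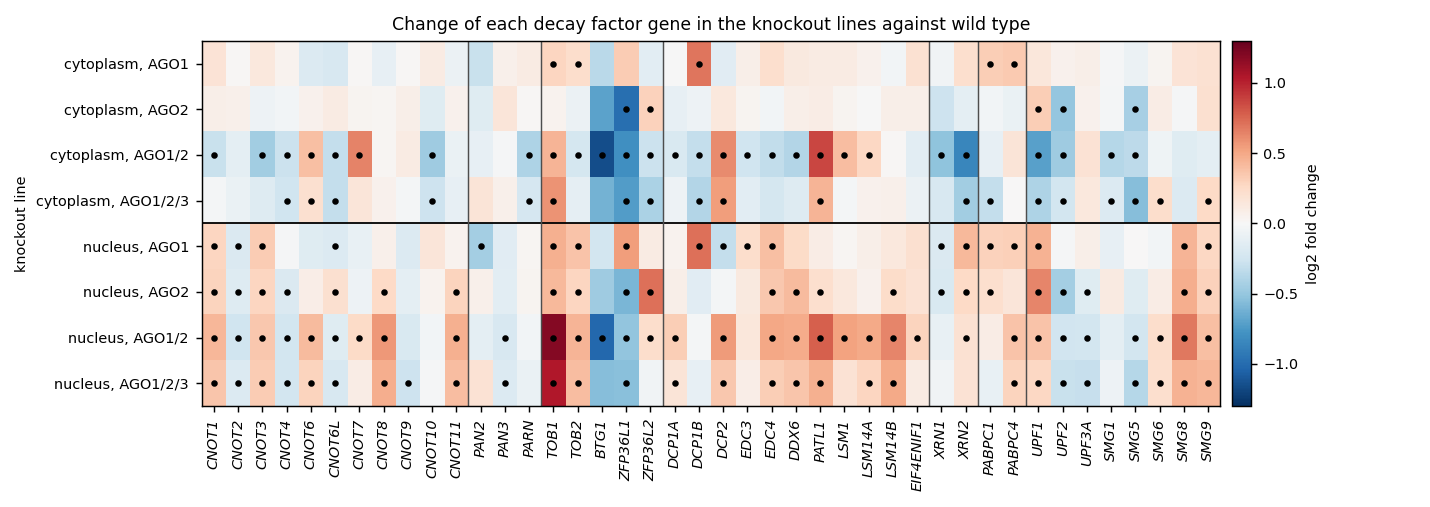
Heat map of the log2 change of each of the 42 genes (grouped by role) in the 8 comparisons of a knockout line with wild type, cytoplasm beside nucleus. Colour gives the log2 change and dots mark called changes (adjusted p of 0.05 or less). The AGO1/2 cytoplasm has 7 higher and 21 lower calls and the AGO1/2 nucleus 24 higher and 9 lower.

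In bulk RNA, a change in the cells' make-up and a change in RNA per cell cannot be told apart. Within CCR4-NOT, subunits moved apart in the AGO1/2 cytoplasm. The deadenylases CNOT7 and CNOT6 were higher, while 5 of the 11 genes were lower. Of protein-coding genes 27.0% were higher and 29.3% lower there, and of all genes 23.9% and 25.4%. CNOT7 rose from 178, 175 and 156 CPM (scaled within the cytoplasm) to 257, 318 and 219.7 CPM at passages 9, 10 and 11 (log2 change 0.64 ± 0.11, adjusted p = 2.4e-04), and the groups did not overlap. CNOT6 rose from 138, 140 and 155 to 183, 209 and 177 CPM (0.39 ± 0.08, adjusted p = 6.0e-04) and reached 167, 159.5 and 174 CPM in the AGO1/2/3 line (0.21 ± 0.08, adjusted p = 0.0397). CNOT3, a subunit of the NOT module, fell from 58.0, 60.0 and 59.1 to 46.4, 40.5 and 42.7 CPM (−0.45 ± 0.07, adjusted p = 8.7e-05). CNOT10, the partner of CNOT11, went from 49.4, 47.9 and 49.2 to 36.3, 33.7 and 36.1 CPM (−0.46 ± 0.06, adjusted p = 8.5e-06) and to 42.2, 41.2 and 38.1 CPM in AGO1/2/3 (−0.27 ± 0.06, adjusted p = 0.0014), with no overlap between groups. CNOT6L, the paralog of CNOT6, was lower in both lines (−0.31 ± 0.08 and −0.31 ± 0.08).

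Decapping held the largest increase of the AGO1/2 cytoplasm, PATL1, and several decreases. DCP2 is the enzyme that removes the cap. Its levels were 122, 132 and 104 CPM in wild type, 176, 193 and 181 CPM in AGO1/2 (0.62 ± 0.09, adjusted p = 7.9e-05) and 164, 178 and 181 CPM in AGO1/2/3 (0.55 ± 0.09, adjusted p = 3.4e-04). PATL1 went from 84.1, 86.1 and 67.0 CPM to 147, 163 and 122 CPM in AGO1/2 (0.87 ± 0.10, adjusted p = 9.2e-06) and 104, 112 and 106 CPM in AGO1/2/3 (0.44 ± 0.10, adjusted p = 0.00338). For both genes every library of these lines lay above every wild-type library, and the single knockouts were not called (−0.15 ± 0.09 and 0.14 ± 0.09 for DCP2, 0.10 ± 0.10 and 0.10 ± 0.10 for PATL1). DCP1B, a DCP1 paralog that partners DCP2, was called higher in the AGO1 line, with 24.1, 25.7 and 23.6 CPM against 15.4, 14.8 and 15.1 CPM (0.69 ± 0.08, adjusted p = 4.9e-05). It was lower in the AGO1/2/3 line at 11.2, 12.6 and 11.1 CPM (−0.38 ± 0.08, adjusted p = 0.00134) and in the AGO1/2 line (−0.31 ± 0.08, adjusted p = 0.00416). The scaffold EDC4 (−0.32 ± 0.10), DDX6 (−0.38 ± 0.10), EDC3 (−0.26 ± 0.07), an enhancer of decapping, and DCP1A (−0.20 ± 0.06) were lower in the AGO1/2 line. LSM1 (0.40 ± 0.14) and LSM14A (0.27 ± 0.08) were higher there on counts and below 0 on uncentred TPM.

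The 5′-3′ exonucleases were both lower in the AGO1/2 cytoplasm. XRN2, the mainly nuclear enzyme, fell from 186, 180.4 and 168 to 102, 89.2 and 106 CPM (−0.85 ± 0.08, adjusted p = 7.2e-07) and stood at 137, 136 and 118 CPM in AGO1/2/3 (−0.45 ± 0.08, adjusted p = 3.6e-04). The highest library of either line was below the lowest wild-type library. XRN1, the cytoplasmic enzyme, fell from 52.5, 49.9 and 66.4 to 39.0, 33.4 and 44.7 CPM (−0.53 ± 0.12, adjusted p = 0.00199), and was not called in AGO1/2/3 (−0.21 ± 0.12).

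Adaptors of deadenylation differed by gene. TOB1 links poly(A)-binding protein to CCR4-NOT. It read 55.2, 52.9 and 61.5 CPM in wild type, 78.1, 69.1 and 83.1 CPM in AGO1/2 (0.44 ± 0.07, adjusted p = 1.6e-04) and 84.8, 85.6 and 83.1 CPM in AGO1/2/3 (0.58 ± 0.07, adjusted p = 2.2e-05), above all wild-type libraries. ZFP36L1 fell from 400.3, 428 and 616 CPM to 245, 225 and 264 CPM in AGO2 (−0.98 ± 0.13, adjusted p = 2.0e-04), 260.4, 295 and 273 CPM in AGO1/2 (−0.80 ± 0.13, adjusted p = 1.8e-04) and 300.3, 270.3 and 303 CPM in AGO1/2/3 (−0.72 ± 0.13, adjusted p = 6.0e-04). No library of these 3 lines reached the lowest wild-type library, whereas the AGO1 line read 549.6, 591 and 673 CPM (0.33 ± 0.13, not called). Its paralog ZFP36L2 was higher in AGO2 (0.30 ± 0.07, adjusted p = 0.00959) and lower in AGO1/2/3 (−0.41 ± 0.07, adjusted p = 3.2e-04). BTG1, an antiproliferative partner of the deadenylases, read 19.8, 20.4 and 53.5 CPM in wild type, and passage 29 alone was high. Its change in AGO1/2 (14.0, 12.4 and 15.9 CPM, −1.15 ± 0.31, adjusted p = 0.00635) was −0.51 without that library, with adjusted p = 0.0292.

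NMD factors were lower more often than higher in the AGO1/2 and AGO1/2/3 cytoplasm. UPF1, UPF2, SMG5 and SMG1 were called lower in both, SMG1 by −0.37 and −0.18 and with the doubt about its pseudogenes. Of all genes 25.4% and 20.0% were lower there and 23.9% and 18.6% higher, and of protein-coding genes 29.3% and 23.4% were lower. The helicase UPF1 was the most changed NMD factor in AGO1/2. UPF1 fell from 119, 127 and 101 to 73.2, 66.0 and 73.6 CPM (−0.70 ± 0.10, adjusted p = 3.1e-05) and to 90.1, 96.0 and 76.5 CPM in AGO1/2/3 (−0.40 ± 0.10, adjusted p = 0.00407). UPF2, which bridges UPF1 to the exon junction complex, fell from 76.2, 80.2 and 65.6 CPM to 51.0, 52.9 and 53.0 CPM in AGO2 (−0.50 ± 0.07, adjusted p = 2.6e-04) and 52.5, 52.0 and 56.2 CPM in AGO1/2 (−0.47 ± 0.07, adjusted p = 8.3e-05). SMG5, which binds phosphorylated UPF1, fell to 50.6, 49.1 and 50.0 CPM in AGO1/2/3 from 78.0, 77.2 and 63.8 CPM (−0.55 ± 0.10, adjusted p = 4.3e-04), and was lower in AGO2 (−0.43 ± 0.10, adjusted p = 0.00752). In contrast, SMG6 (0.23 ± 0.07) and SMG9 (0.26 ± 0.09) were higher in AGO1/2/3, though below 0 on uncentred TPM. In the AGO2 line UPF1 was higher, at 153, 133 and 148 CPM (0.32 ± 0.10, adjusted p = 0.0332), a call that was lost without any 1 of 4 libraries, among them wild-type passage 29 (0.23, adjusted p = 0.105).

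Poly(A)-binding proteins were higher in the AGO1 line. PABPC1 read 3921, 4008 and 4010 CPM against 3044, 3092 and 3409 CPM in wild type (0.32 ± 0.07, adjusted p = 0.0071), and PABPC4 439, 411 and 384 CPM against 345, 334 and 299.5 CPM (0.34 ± 0.08, adjusted p = 0.015). TOB1 (0.28 ± 0.07) and TOB2 (0.23 ± 0.06) completed the genes called there. Leaving out 1 library ended the call of PABPC4 (AGO1 passage 6 or 7), TOB1 (wild-type passage 27 or 28, AGO1 passage 7 or 8) and TOB2 (wild-type passage 27, AGO1 passage 7 or 8). PABPC1 was lower in AGO1/2/3, at 2523, 2483 and 2713 CPM (−0.31 ± 0.07, adjusted p = 0.00262).

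PARN was lower in the AGO1/2 (−0.40 ± 0.06) and AGO1/2/3 (−0.21 ± 0.06) cytoplasm, while PAN2 and PAN3 were not called in either. The 10 genes with no call in any cytoplasmic comparison were CNOT2, CNOT8, CNOT9, CNOT11, PAN2, PAN3, LSM14B, EIF4ENIF1, UPF3A and SMG8. In AGO1/2 the 14 uncalled changes lay between −0.16 and 0.19, and in AGO1/2/3 the 23 uncalled ones between −0.62 and 0.17.

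**Figure D3:**
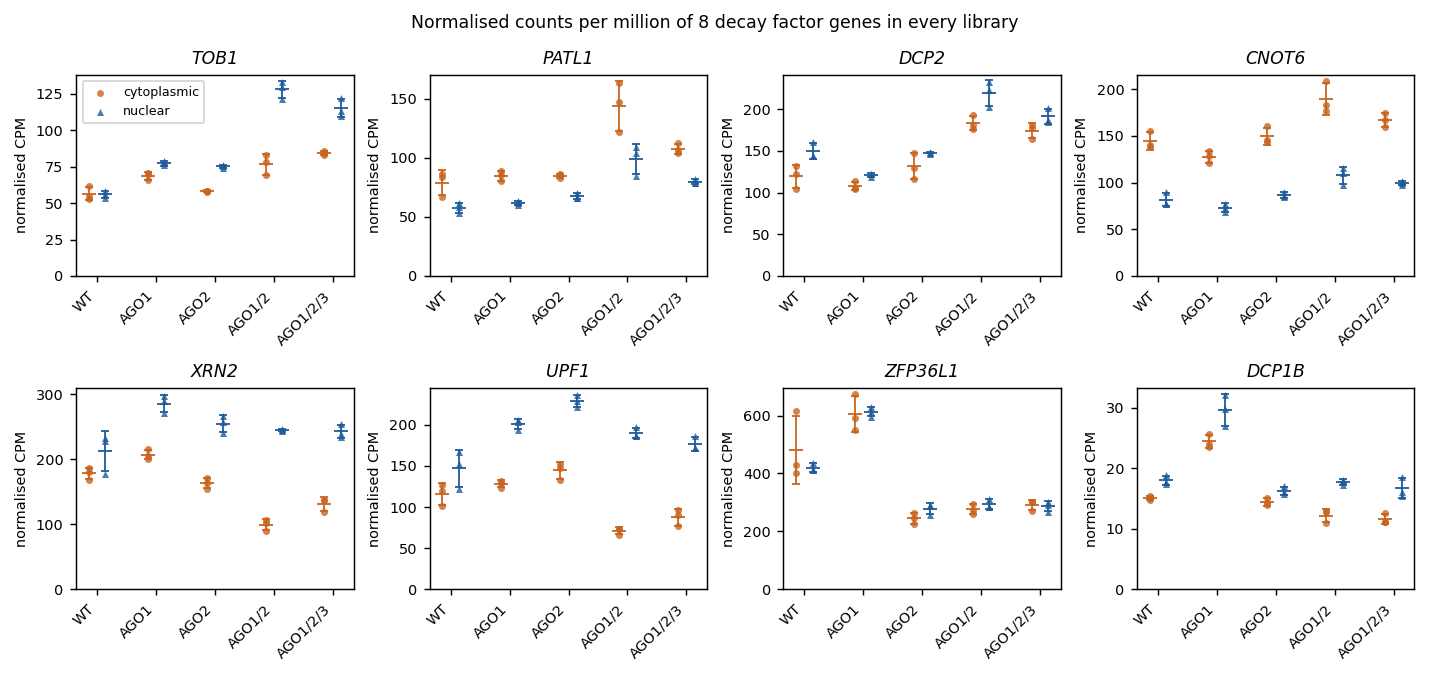
Level of TOB1, PATL1, DCP2, CNOT6, XRN2, UPF1, ZFP36L1 and DCP1B in each library (CPM, scaled within a fraction), by genotype in the cytoplasm and the nucleus, with bars for the mean ± SD of 3 passages. On this scale PATL1 and DCP2 lie above wild type in the AGO1/2 and AGO1/2/3 lines in both fractions, and XRN2 lies below wild type in their cytoplasm (102, 89.2 and 106 CPM in AGO1/2).

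In the nucleus, decay factors were higher more often than lower in every knockout line. The higher and lower counts were 14 and 5 in AGO1 (14.3% and 15.6% of all genes), 17 and 6 in AGO2 (20.2% and 19.9%), 24 and 9 in AGO1/2 (32.9% and 34.7%), and 19 and 9 in AGO1/2/3 (29.1% and 29.5%). Protein-coding genes as a whole leaned the same way, with 43.8% higher and 25.8% lower in AGO1/2 and 38.5% and 24.1% in AGO1/2/3. Medians over the 42 genes were 0.24 and 0.18 in these lines, against 0.15 and 0.12 over protein-coding genes. The lower counts moved with single libraries. That of AGO1 was 2 without AGO1 passage 6 and 3 without wild-type passage 28, that of AGO2 was 2 without AGO2 passage 8, 9 or 10 and 3 without wild-type passage 28 or 29, and that of AGO1/2 was 4 without wild-type passage 28. Without the filter on low counts they were 2, 3, 2 and 5. A filter at a mean count of at least 50 moved them the other way, to 7, 8, 12 and 12. The higher counts were then 14, 16, 19 and 17. On log2(TPM + 0.1) values the median of all genes shifted by −0.25, −0.25, −0.12 and −0.26 in the lines lacking AGO1, AGO2, AGO1/2 or AGO1/2/3. The counts became 2 and 13, 1 and 17, 15 and 13, and 2 and 16, and with centred libraries 16 and 3, 14 and 4, 25 and 10, and 18 and 10. Of the called genes 3 of 19, 9 of 23, 0 of 33 and 8 of 28 changed sign on uncentred TPM, and none on centred TPM.

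The make-up of the nuclear RNA moved with genotype. In AGO1/2 nuclei MALAT1 and NEAT1 were lower (−1.18 and −1.27) and GAPDH and the epithelial gene KRT8 higher (1.11 and 1.34). In AGO1/2/3 nuclei the values were −0.95, −0.71, 0.91 and 1.22. The AGO1 and AGO2 lines had MALAT1 at −0.53 and −0.49 and GAPDH at 0.60 and 0.60. The part of this shift in the nuclear values below was not tested.

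TOB1 had the largest change of the 42 genes in AGO1/2 and AGO1/2/3 nuclei. It rose from 58.4, 53.5 and 56.4 CPM in wild type to 129.9, 122 and 133 CPM in AGO1/2 (1.19 ± 0.06, adjusted p = 2.6e-10) and 110.2, 113 and 122 CPM in AGO1/2/3 (1.04 ± 0.06, adjusted p = 1.6e-09). The single knockouts lay between, at 75.9, 77.4 and 79.0 CPM in AGO1 (0.46 ± 0.06, adjusted p = 5.2e-05) and 74.4, 75.5 and 76.3 CPM in AGO2 (0.43 ± 0.06, adjusted p = 4.9e-05), and no library of any line overlapped wild type. TOB2 was higher in AGO1/2/3 as well (0.40 ± 0.06, adjusted p = 4.8e-05). ZFP36L1 rose in AGO1 to 596, 614 and 629 CPM from 410.2, 411 and 437 CPM (0.55 ± 0.07, adjusted p = 4.5e-05). It fell in AGO2 (292, 256 and 287 CPM, −0.59 ± 0.07, adjusted p = 1.1e-05), AGO1/2 (−0.51 ± 0.07, adjusted p = 6.4e-06) and AGO1/2/3 (−0.54 ± 0.07, adjusted p = 5.2e-06). ZFP36L2 rose in AGO2, with 51.5, 57.5 and 59.6 CPM against 39.0, 32.9 and 30.6 CPM (0.72 ± 0.10, adjusted p = 6.2e-05). BTG1 again had wild-type passage 29 apart (18.3, 17.7 and 39.7 CPM), and its change in AGO1/2, −1.02 ± 0.25, was −0.51 without it.

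Of the 11 decapping genes 9 were higher in AGO1/2 nuclei and 7 in AGO1/2/3 nuclei, and none was lower in either, where 43.8% and 38.5% of protein-coding genes were higher. DCP2, LSM14A and DCP1A were below 0 on uncentred TPM in AGO1/2/3 nuclei (−0.10, −0.10 and −0.14). PATL1 read 58.6, 61.7 and 53.2 CPM in wild type, 104, 109 and 84.7 CPM in AGO1/2 (0.78 ± 0.08, adjusted p = 7.9e-07) and 78.9, 82.2 and 78.3 CPM in AGO1/2/3 (0.46 ± 0.08, adjusted p = 1.8e-04). DCP2 read 144, 161 and 144 CPM in wild type and 223, 233 and 203 CPM in AGO1/2 (0.55 ± 0.06, adjusted p = 1.7e-06), and was lower in AGO1 at 122, 122 and 118 CPM (−0.31 ± 0.06, adjusted p = 0.00208). DCP2 therefore lay above wild type in one line and below it in the other. In AGO1/2/3 nuclei it read 185, 202 and 187 CPM (0.35 ± 0.06, adjusted p = 1.8e-04). LSM14B, a translational repressor of the LSM14 family, changed by 0.63 ± 0.06 in AGO1/2 and 0.50 ± 0.06 in AGO1/2/3, and EDC4 by 0.51 ± 0.08 in AGO1/2. LSM14A (0.49 ± 0.07), DDX6 (0.48 ± 0.10) and LSM1 (0.52 ± 0.14) were higher in AGO1/2 too, LSM1 by 0.33 without AGO1/2 passage 10. DDX6 in AGO1/2/3 (0.37 ± 0.10) was at 0.24 without wild-type passage 29. DCP1B was higher in AGO1 nuclei too, with 29.8, 32.2 and 27.0 CPM against 17.7, 17.5 and 18.9 CPM (0.72 ± 0.08, adjusted p = 2.9e-05).

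Within CCR4-NOT, 6 of 11 genes were higher and 3 lower in AGO1/2 nuclei, and 5 were higher and 4 lower in AGO1/2/3 nuclei. Of protein-coding genes 43.8% were higher and 25.8% lower in AGO1/2 nuclei, and 38.5% and 24.1% in AGO1/2/3 nuclei. CNOT8 read 33.1, 32.1 and 30.3 CPM in wild type, 46.9, 49.1 and 45.5 CPM in AGO1/2 (0.57 ± 0.06, adjusted p = 1.3e-06) and 44.3, 42.1 and 46.5 CPM in AGO1/2/3 (0.48 ± 0.06, adjusted p = 1.1e-05), with no overlap. CNOT11 (0.40 ± 0.05) and CNOT1 (0.36 ± 0.05) were higher in AGO1/2/3, the latter at −0.01 on uncentred TPM. CNOT1, CNOT3 and CNOT11 were higher in AGO2 nuclei by 0.29, 0.28 and 0.29, where uncentred TPM put each of them below 0, as it did CNOT1 in AGO1 nuclei. CNOT2, which binds CNOT3, was lower in all 4 lines, at −0.19, −0.17, −0.26 and −0.18 in the lines lacking AGO1, AGO2, AGO1/2 or AGO1/2/3. PAN2 was lower in AGO1 nuclei (−0.45 ± 0.11, adjusted p = 0.00739), and PAN3 in AGO1/2 (−0.21 ± 0.06) and AGO1/2/3 nuclei (−0.18 ± 0.06). PABPC4 was higher in AGO1 nuclei (0.31 ± 0.09, adjusted p = 0.0165), by 0.21 without wild-type passage 29, with no call without AGO1 passage 6 and a value at 0.00 on uncentred TPM.

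Among NMD factors, UPF1 was higher in the nuclei of all 4 lines, in the same order by 0.45, 0.64, 0.37 and 0.27, the last at −0.02 on uncentred TPM. It read 166, 152 and 122 CPM in wild type and 236, 229 and 222 CPM in AGO2 (0.64 ± 0.09, adjusted p = 4.8e-05), and all AGO2 libraries were above wild type. SMG8, a regulator of SMG1, rose from 48.2, 42.6 and 34.4 CPM to 69.2, 72.3 and 60.1 CPM in AGO1/2 (0.69 ± 0.10, adjusted p = 3.3e-05), and its partner SMG9 changed by 0.43 ± 0.06, adjusted p = 7.8e-06 in AGO1/2/3. UPF2 was lower in AGO2 (103, 94.6 and 93.3 CPM against 139.8, 139 and 116 CPM, −0.44 ± 0.07, adjusted p = 2.9e-04), and SMG5 in AGO1/2/3 (−0.37 ± 0.07, adjusted p = 2.7e-04). XRN2 was higher in AGO1 nuclei, at 297, 289 and 270.1 CPM against 233, 227 and 178 CPM (0.42 ± 0.08, adjusted p = 0.00166). CNOT10, PARN and SMG1 were the 3 genes with no call in any nuclear comparison, and the 9 uncalled changes in AGO1/2 nuclei lay between −0.20 and 0.15.

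Several decay factors changed differently in the 2 fractions of the AGO1/2/3 line. The nuclear change minus the cytoplasmic change was tested in 1 fit over both fractions, and it was above 0 for 12 of the 42 genes and below 0 for 2. Over all 20104 genes 11.7% were called above 0 and 11.1% below, and over protein-coding genes 16.5% and 10.3%. On log2(TPM + 0.1) values 9 were above and 2 below 0, and with centred libraries 15 and 2. With the passage number as a block the counts were 14 and 4, and the calls over all genes went from 4568 to 7007.

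UPF1 had the largest such difference at 0.58 ± 0.14 (adjusted p = 0.00377), with a cytoplasmic change of −0.40 and a nuclear change of 0.27. XRN2 differed by 0.55 ± 0.13, adjusted p = 0.00223, with a lower cytoplasmic level (−0.45) and a nuclear change of 0.19 that was not called. For TOB1 (0.38 ± 0.09, adjusted p = 0.00293) both fractions were higher, the nucleus more so. TOB2 (0.44 ± 0.08), CNOT11 (0.42 ± 0.06), CNOT3 (0.41 ± 0.09), LSM14B (0.35 ± 0.07) and CNOT8 (0.34 ± 0.08) were each called higher in the nucleus alone. UPF3A went the other way (−0.52 ± 0.12, adjusted p = 0.0031), with nuclear libraries at 32.9, 35.9 and 32.8 CPM against 39.9, 42.8 and 42.4 CPM in wild type. SMG8 (0.55 ± 0.17), EDC4 (0.47 ± 0.14) and DDX6 (0.44 ± 0.16) were also called, and each lost its call without nuclear wild-type passage 29 (adjusted p = 0.0536, 0.0612 and 0.114), DDX6 falling to 0.27. SMG8 also lost it without cytoplasmic wild-type passage 27, and EDC4 without cytoplasmic wild-type passage 28 or AGO1/2/3 passage 14. DDX6 kept no call without any 1 of 7 libraries (adjusted p = 0.0656 to 0.114).

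**Figure D4:**
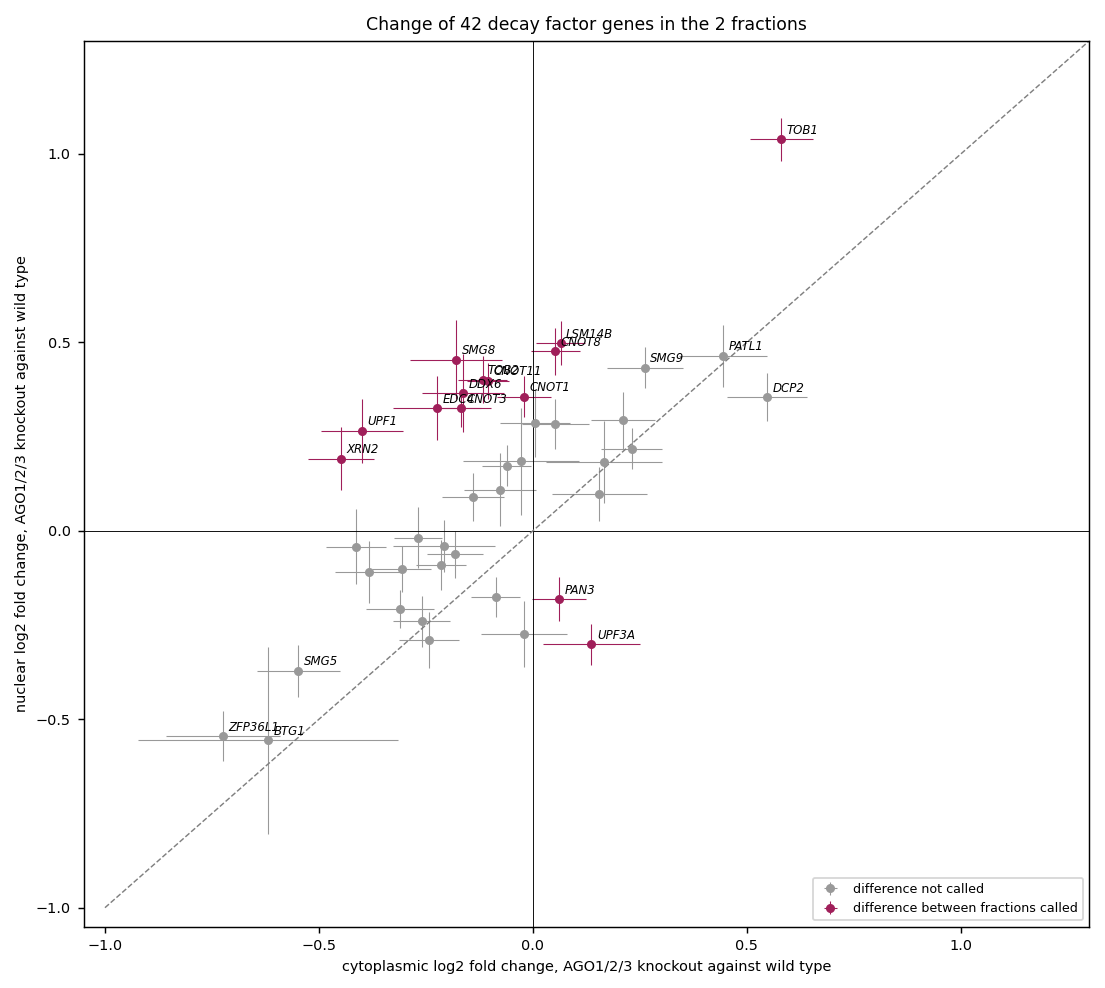
Log2 change of each of the 42 genes in the AGO1/2/3 line against wild type, cytoplasm on the x axis and nucleus on the y axis, with error bars of ± 1 standard error and the line of equal change. The 14 genes whose change differed between fractions are marked, with UPF1 (−0.40 and 0.27) and XRN2 (−0.45 and 0.19) to the upper left.

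The AGO1/2/3 and AGO1/2 lines were also compared directly. In the cytoplasm 5 genes were higher and 2 lower in AGO1/2/3, where 2.47% and 2.48% of all genes were called. CNOT7 (−0.49 ± 0.11, adjusted p = 0.0303) and PATL1 (−0.42 ± 0.10, adjusted p = 0.036) were lower, and XRN2 (0.40 ± 0.08), SMG9 (0.39 ± 0.09), SMG6 (0.29 ± 0.07), CNOT3 (0.28 ± 0.07) and CNOT1 (0.26 ± 0.06) were higher. Against wild type, CNOT7 had read 0.64 in AGO1/2 and 0.16 in AGO1/2/3 (the latter not called), and XRN2 −0.85 and −0.45. SMG9 had read −0.13 (not called) and 0.26. In the nucleus PATL1 alone was called (−0.31 ± 0.08, adjusted p = 0.0481), with 0 higher and 1 lower, where 1.74% of all genes were higher and 1.74% lower. That call was lost without AGO1/2 passage 9 or 10 or without AGO1/2/3 passage 11, 12 or 14 (adjusted p = 0.0933 to 0.26). None of the 7 cytoplasmic calls held without AGO1/2 passage 9 or 10 or AGO1/2/3 passage 11 or 12. Without AGO1/2 passage 11, 9 genes were higher and 4 lower in the cytoplasm, and 1 and 9 in the nucleus. On log2(TPM + 0.1) values 9 were higher and 0 lower in the cytoplasm and 0 and 6 in the nucleus, where the median of all genes shifted by 0.13 and −0.16, and with centred libraries 1 and 0, and 0 and 0.

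The ratio of non-coding to coding TPM in AGO1/2/3 nuclei was lower for 20 of the 38 genes tested (52.6%), higher for none and not called for 18, where 44.7% of 9663 genes were lower and 2.22% higher. The median log2 change was −0.66 for the 38 genes and −0.61 for all. CNOT10 fell from 40.0, 44.0 and 51.4% of its TPM in wild type to 30.8, 26.2 and 21.1% (−1.22 ± 0.20, adjusted p = 4.3e-04). PARN, a poly(A)-specific ribonuclease, fell from 21.8, 20.5 and 16.3% to 8.15, 11.2 and 9.08% (−1.16 ± 0.27, adjusted p = 0.00368). XRN1 fell from 40.9, 47.0 and 32.5% to 25.2, 24.6 and 20.2% (−1.11 ± 0.24, adjusted p = 0.00264), and in none of the 3 genes did the groups overlap. UPF3A (−1.02 ± 0.28), PATL1 (−0.99 ± 0.30) and PABPC4 (−0.94 ± 0.12) were the next largest, with adjusted p = 0.00924, 0.017 and 9.6e-05. The call for PATL1 was lost without nuclear wild-type passage 27 (−0.75, adjusted p = 0.0746) and without AGO1/2/3 passage 12 or 14. Without nuclear AGO1/2/3 passage 14 the number of genes called was 13.

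In the cytoplasm of that line 1 gene had a higher and 1 a lower non-coding share, where 2.08% and 1.36% of 9066 genes did. For PABPC1 the share went from 2.64, 3.07 and 5.67% to 9.52, 10.8 and 10.8% (1.63 ± 0.27, adjusted p = 0.00727). This was mostly 1 transcript without a defined coding sequence, PABPC1-211, at 17.9, 21.8 and 51.2 TPM in wild type and 63.3, 74.1 and 78.9 TPM in AGO1/2/3. It read 125, 104 and 91.9 TPM in AGO1. With retained-intron and NMD transcripts alone the PABPC1 difference was 0.27 and was not called. For UPF2 the share was 9.93, 10.5 and 9.74% in wild type, all of it in UPF2-204 (1.25, 1.36 and 0.943 TPM), which is listed at 0 in all cytoplasmic libraries of every knockout line.

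**Figure D5:**
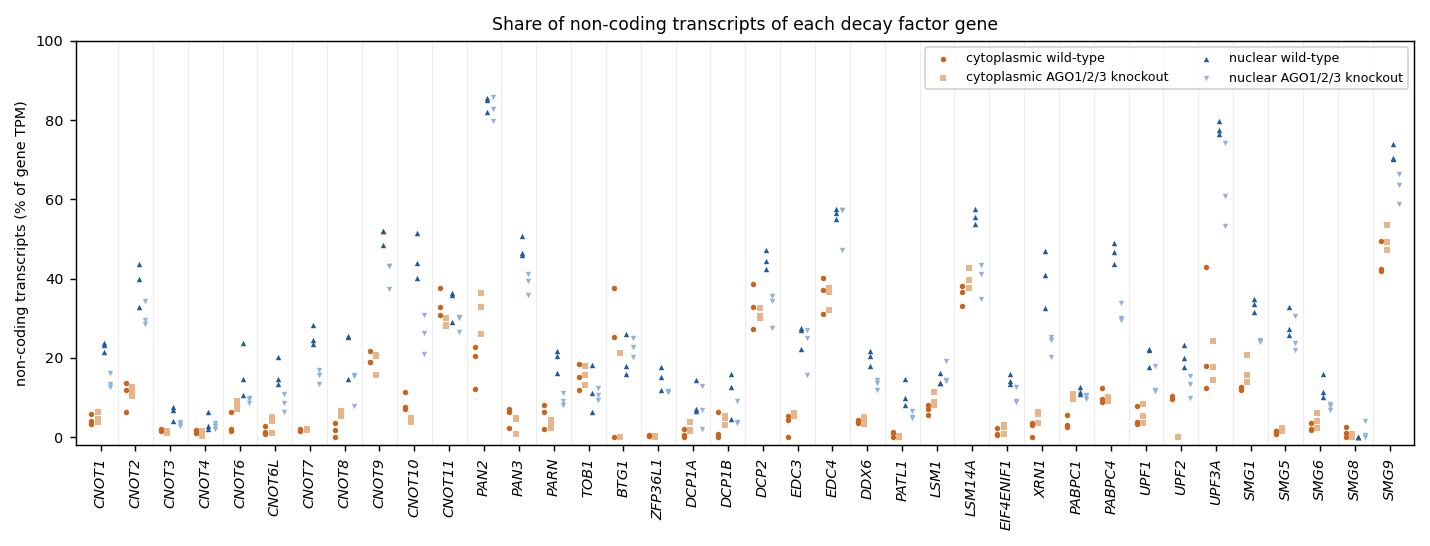
Share of each of the 38 tested genes' TPM held by transcripts not annotated as protein-coding (percent), for wild type and the AGO1/2/3 line in the cytoplasm and the nucleus, with 1 point for each library. In wild type most nuclear shares lie above the cytoplasmic ones, and nuclear shares of CNOT10, PARN and XRN1 lie lower in the AGO1/2/3 line.

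Related pathways outside the 42 genes were counted from lists drawn up by name. Of 18 exosome and SKI genes, which digest RNA from the 3′ end, 12 were lower and none higher in the AGO1/2 cytoplasm, and 10 were lower and 1 higher in the AGO1/2/3 cytoplasm, with median log2 changes of −0.34 and −0.25 against −0.01 over all genes. The matching shares of all genes were 25.4% lower and 23.9% higher in AGO1/2, and 20.0% and 18.6% in AGO1/2/3. The nuclease DIS3 read 99.8, 94.4 and 99.8 CPM in wild type and 53.9, 51.2 and 57.5 CPM in AGO1/2 (−0.85 ± 0.06, adjusted p = 1.2e-07), the helicase MTREX changed by −0.76 ± 0.10, adjusted p = 1.8e-05, and EXOSC4 by −0.61 ± 0.16, adjusted p = 0.00567. In the nucleus 6 were higher and 4 lower in AGO1/2, and 3 and 4 in AGO1/2/3 (medians −0.03 and −0.07). Of all genes 32.9% were higher and 34.7% lower in AGO1/2 nuclei, and 29.1% and 29.5% in AGO1/2/3 nuclei. Of 14 exon junction complex and other NMD genes, 5 were lower in the AGO1/2 cytoplasm, among them the release factor GSPT1 (−0.63 ± 0.07, adjusted p = 4.4e-06), and 4 in AGO1/2/3, with none higher in either (medians −0.11 and −0.17). Their nuclear counts were 9 higher and 4 lower in AGO1/2 and 3 and 3 in AGO1/2/3 (medians 0.26 and 0.13), with EIF4A3, a core junction protein, at −0.91 ± 0.16 in AGO1/2.

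Of 21 other deadenylation and decapping genes, 14 were higher and 4 lower in AGO1/2 nuclei and 10 and 3 in AGO1/2/3 nuclei, and 3 and 3, and 3 and 4, in the matching cytoplasm. Of protein-coding genes 43.8% and 38.5% were higher in those nuclei, and 25.8% and 24.1% lower. In the AGO1/2 cytoplasm 27.0% were higher and 29.3% lower, and in the AGO1/2/3 cytoplasm 21.6% and 23.4%. The medians of the list were 0.39 and 0.10 in the nucleus and 0.07 and −0.07 in the cytoplasm. The scavenger decapping enzyme DCPS read 8.70, 8.11 and 7.59 CPM in wild type and 15.0, 16.0 and 13.8 CPM in AGO1/2 nuclei (0.88 ± 0.09, adjusted p = 4.5e-07), and the BTG1 paralog BTG2 changed by 0.80 ± 0.08, adjusted p = 4.7e-07. Of 11 known NMD target transcripts, none was higher and 1 lower in the cytoplasm of either line, while 2 were higher and 5 lower in the nucleus of either. In the cytoplasm 23.9% of all genes were higher and 25.4% lower in AGO1/2, and 18.6% and 20.0% in AGO1/2/3. In the nucleus these shares were 32.9% and 34.7% in AGO1/2, and 29.1% and 29.5% in AGO1/2/3. Medians of the 11 transcripts were −0.21 and −0.25 in the cytoplasm and −0.51 and −0.28 in the nucleus. The 1 cytoplasmic gene, UPP1, read 4.36, 4.47 and 20.6 CPM in wild type and 3.34, 2.32 and 2.56 CPM in AGO1/2/3 (−1.84 ± 0.45, adjusted p = 0.00489), and wild-type passage 29 alone was high.

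Calls are also given for the 42 genes with and without an 8mer match, as counts without a test. The sets with and without a match were not matched for the length of the 3′ untranslated region. Among the genes with an 8mer are TOB1, PATL1, DCP2 and CNOT6, whose sites were shown because they were higher in these cytoplasms. In the AGO1/2/3 cytoplasm 5 of the 21 genes with an 8mer were higher and 4 lower, against 1 and 9 of the 21 without, with medians of 0.00 and −0.18. Over all genes 23.1% of 6505 with an 8mer were higher and 24.4% lower, and 20.3% and 22.5% of 7050 without. In AGO1/2 the counts were 6 and 9 with an 8mer and 1 and 12 without (29.2% and 29.9% of all genes with, 25.0% and 28.9% without). In AGO1/2 nuclei they were 12 and 5 with and 12 and 4 without (43.1% and 28.6% of all genes with, 46.6% and 22.3% without). In AGO1/2/3 nuclei they were 10 and 5 with and 9 and 4 without (37.3% and 27.5%, and 41.4% and 20.7%).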

How the data were processed

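RNA-seq libraries were made from ribosome-depleted, stranded total RNA of cytoplasmic and nuclear fractions and sequenced paired-end. Per the submitters' processing notes the authors used STAR 2.5.3a and Salmon 0.11.0 with hg38, and deposited a transcript file for each library with estimated counts, TPM and an effective length for each transcript. The TPM values deposited by the authors are scaled to each library's own total. Of 200243 transcripts 195887 (97.82%) matched GENCODE 44 by identifier, and the unmatched ones held 2.23 to 4.01% of the reads of a library. The annotation release used by the authors could not be matched, so GENCODE 44 gave gene names, transcript classes and coordinates.

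Estimated counts were summed per gene and rounded to whole numbers. Genes that passed filterByExpr (minimum count 10) were scaled by TMM and tested with edgeR 4.0.16 (quasi-likelihood test) in R 4.3.3. All 15 libraries of a fraction entered 1 fit, and all 30 libraries entered the fits between fractions. P-values were adjusted over all genes by the Benjamini-Hochberg method and a gene was called at 0.05 or less. Values after ± in a log2 change are standard errors, and CPM were computed from TMM-scaled library sizes. The log2 ratio of non-coding to protein-coding TPM, each with 0.1 added, was tested with limma 3.58.1. Genes entered if they had transcripts of both classes and a mean of at least 1 TPM summed over both. TOB2, LSM14B, XRN2 and ZFP36L2 did not enter that test.

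The 42 genes, the pathway lists and the microRNAs were chosen with earlier results of these data known. By rule, the genes named were the 12 called ones with the largest change in each comparison (6 for the non-coding share, and up to 3 per pathway list), and others were added after their values were seen. Groups were taken from the sample labels. No 2 libraries of a group agreed within sampling noise (chi-square per degree of freedom of at least 4.83). Among wild-type libraries, passage 29 differed most from passages 27 and 28 (78.6 and 73.3 in the cytoplasm, against 7.47 between those 2). The largest value was that of AGO1/2 passages 10 and 11 in the cytoplasm (128.8, and 41.7 in the nucleus). Cytoplasmic AGO1/2 passage 9 gave 44.0 against passage 10 and 50.7 against passage 11. Same-numbered wild-type libraries of the 2 fractions deviated together (r = 0.124, 0.117 and 0.344 for passages 27, 28 and 29), while those of the AGO1/2/3 line did not (−0.031, 0.020 and 0.026).

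The fits of the AGO1/2/3 line against wild type were tested on simulated data, and those of the other comparisons were not. Simulated libraries were independent of each other, and 200 genes were changed, fewer than were called in the data. In the AGO1/2/3 cytoplasm (17272 genes) edgeR recovered 48 of 100 genes changed by 0.5 and 92 of 100 changed by 1 on the log2 scale, with 10 false calls. In the nucleus (18472 genes) it recovered 59 and 94, with 2 false calls, and for the difference between fractions (19570 genes) 21 and 78, with 4. For the non-coding share limma recovered 117 of 200 changes of 1 in the cytoplasm and 157 of 200 in the nucleus. These had 9 and 15 false calls, and the changed genes were drawn from those with a spread below the median. Alternatives were DESeq2 1.42.0, other size factors, filters and pseudocounts, counts scaled by length, limma on TPM, the compared groups alone, each library left out and the passage as a block. TPM less the library median was added after the data had been seen. Tables were handled with Python 3.11.15, pandas 2.3.3 and numpy 2.4.6, and figures drawn with matplotlib 3.10.9. All intervals and errors cover the spread between passages within a line and no other source. SDs use the 3 passages of 1 group, and standard errors use a spread pooled over all groups of a fit.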

Additional observations from a re-analysis of the deposited data

Results flagged for a closer look

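In the AGO1/2/3 line 14 of the 42 genes changed by a different amount in the nucleus than in the cytoplasm, by a test of the difference itself (edgeR's quasi-likelihood test, adjusted over all genes). The nuclear change was the higher one on the log2 scale by 0.58 for UPF1, 0.55 for XRN2, 0.55 for SMG8, 0.47 for EDC4, 0.44 for DDX6, 0.44 for TOB2, 0.42 for CNOT11, 0.41 for CNOT3, 0.38 for TOB1, 0.35 for LSM14B, 0.34 for CNOT8 and 0.30 for CNOT1. It was the lower one for UPF3A (−0.52) and PAN3 (−0.32). The calls of SMG8, EDC4 and DDX6 were lost without nuclear wild-type passage 29 (adjusted p = 0.0536, 0.0612 and 0.114, DDX6 at 0.27) and without other single libraries. The same difference was −1.35 for MALAT1, −0.99 for NEAT1 and 0.59 for GAPDH, and the part of this shift in the 14 values was not tested. No wild-type or AGO1/2/3 group held more than 3 libraries, so no single library was tested as an outlier.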

How the results depend on the processing

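On log2(TPM + 0.1) values 13 of the 37 called genes changed sign between wild-type fractions. In AGO1, AGO2 and AGO1/2/3 nuclei 3 of 19, 9 of 23 and 8 of 28 did. In the AGO1/2 and AGO1/2/3 cytoplasm it was 2 of 28 and 2 of 19. The tally that follows covers only the 128 changes named by rule, the largest called ones of each comparison. Of their 1978 values under the alternatives, 1796 kept their direction and their call, 170 kept their direction without a call and 12 reversed. All 12 lay on uncentred TPM (pseudocounts of 1 and 0.1): PABPC4 in AGO1 nuclei (−0.0004 and −0.0003), SMG9 (−0.019 and −0.020), CNOT11 (−0.053 and −0.055), CNOT1 (−0.14 and −0.15) and CNOT3 (−0.034 and −0.035) in AGO2 nuclei, and CNOT1 in AGO1/2/3 nuclei (−0.0089 and −0.0090).

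Counts of called genes moved by over 1.5 times in some settings. In the cytoplasm the count for AGO1 (5) was 9 on centred TPM and 2 with the compared groups alone, that for AGO2 (5) was 16 on TPM with either pseudocount, and that for AGO1/2/3 (19) was 30 on TPM with either. In AGO1/2/3 nuclei (28) it was 18 on TPM with either pseudocount. Between the AGO1/2/3 and AGO1/2 cytoplasm (7) it was 15 by DESeq2, 1 on centred TPM and 0 with the compared groups alone (edgeR, 4037 of all genes at an unadjusted p under 0.05). Between their nuclei (1) it was 7 by DESeq2, 6 on TPM with either pseudocount, and 0 with counts scaled by length, on centred TPM and with the compared groups alone. For the non-coding share in the AGO1/2/3 cytoplasm (2) it was 12 with a pseudocount of 1 TPM, 0 with retained-intron and NMD transcripts alone and 1 with the compared groups alone. The cause was not tested.

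Leaving out 1 library gave 2 to 6 genes for AGO1, 4 to 5 for AGO2, 26 to 31 for AGO1/2 and 16 to 23 for AGO1/2/3 in the cytoplasm, and 15 to 21, 17 to 24, 28 to 33 and 26 to 28 in the nucleus. The range was 33 to 38 between wild-type fractions, 12 to 15 for the difference between fractions, 0 to 13 and 0 to 10 between AGO1/2/3 and AGO1/2 (cytoplasm and nucleus), 32 to 33 for the wild-type non-coding share, and 2 to 5 and 13 to 19 for that of AGO1/2/3 (cytoplasm and nucleus). With the passage as a replicate block, the counts were 39 between wild-type fractions, 18 for the difference between fractions and 33 for the wild-type non-coding share, all within 1.5 times. Over all genes the difference between fractions rose from 4568 to 7007 calls under the block. Depth left every one of the 42 genes with at least 265 reads in each library. The spread that the tests used was that between passages within a line, pooled over all groups of a fit.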
